A study of Ciona robusta with 15 samples.

Results

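The comparison described here is between Ciona robusta embryos given Bra together with Foxa.a and Mnx and embryos given Bra alone, and it asks what adding both further factors to Bra changed in the RNA of the whole embryo. It rests on 6 of the 15 libraries of the series, which were taken by their labels: the 3 Bra+Foxa.a+Mnx libraries and the 3 Bra libraries. Fertilised eggs of every group were electroporated with plasmids whose coding sequence stands under the enhancer of Etr (Celf3/4/5/6), a gene active in the nervous system. Bra+Foxa.a+Mnx embryos carried Etr1>Venus-Bra with Etr1>Foxa.a-Myc and Etr1>Mnx-HA. Bra+Foxa.a embryos carried Etr1>Venus-Bra with Etr1>Foxa.a-Myc, and Bra+Mnx embryos carried Etr1>Venus-Bra with Etr1>Mnx-HA. Bra embryos carried Etr1>Venus-Bra, and control embryos carried the nuclear reporter Etr1>H2B-Venus. Each group had 3 libraries, each of 300 embryos grown at 21 °C to Hotta stage 19.5. Embryos of the 2 compared groups therefore shared Etr-driven Bra and differed in the number of plasmids as well as in the factors encoded. The amount of each plasmid is not given in the sources used here.

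Bra is the T-box transcription factor that specifies the notochord, the rod of cells along the midline of the chordate tail, and in Ciona it activates a large set of notochord genes. Foxa.a is a forkhead factor of the early embryo whose lineages include notochord, endoderm and the ventral neural tube. Mnx is a homeodomain factor, known in vertebrates from motor neurons and the pancreas. Electroporation is mosaic: not every cell that uses the enhancer takes up every plasmid, and the RNA measured here is that of all tissues of the embryo together. A lower level in such bulk RNA can come from fewer cells of a type or from less RNA per cell, and these cannot be told apart.

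Reads recovered from the deposited values ranged from 17924786 to 25752608 per library over the 6 libraries, and averaged 21107611 ± 4113655 in Bra+Foxa.a+Mnx and 20890706 ± 1525238 in Bra (SD, n = 3 each). Libraries with the same replicate number deviated together from their group means, so they were treated as pairs, and the effect of that choice is given beside the results it moves. No label says what the number marks or that replicates came from separate batches of eggs, so a p-value speaks of the spread among these libraries alone, which may be technical. Values are normalised reads (recovered reads divided by a size factor per library), differences are on the scale of log2(normalised reads + 1) and are written with their standard error, and a gene was called at an adjusted p under 0.05 (limma with Benjamini-Hochberg adjustment over 14261 genes). Genes are given in the files as KH gene models without names. The 16 names used here were attached from general knowledge of the KH gene set and were not checked against an annotation.

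All 3 electroporated genes were higher in Bra+Foxa.a+Mnx embryos, Mnx by the widest margin of the 3. A read of the plasmid's transcript and one of the embryo's own gene cannot be told apart here. Mnx (KH.L128.12) had 2805.9, 2209.8 and 2257.9 normalised reads in the 3 Bra+Foxa.a+Mnx libraries, against 367.0, 449.2 and 403.7 in the 3 Bra libraries. The groups were far from overlapping, and the difference was 2.57 ± 0.19 on the log2 scale, a 5.93-fold higher level (limma, adjusted p = 3.36e-07). Foxa.a (KH.C11.313) had 14992.2, 13287.8 and 13443.1 normalised reads in Bra+Foxa.a+Mnx, against 6811.6, 8357.9 and 6549.8 in Bra. Every Bra+Foxa.a+Mnx library lay above every Bra library, with a difference of 0.95 ± 0.10 (1.93-fold, limma adjusted p = 8.35e-06). Control embryos, which carried no Foxa.a plasmid, already had 5559.3 ± 282.1 normalised reads of Foxa.a (SD, n = 3).

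Bra itself, encoded by a plasmid in both groups, was also higher when both partners were added. Bra (KH.S1404.1) had 1554.8, 1623.0 and 1458.2 normalised reads in Bra+Foxa.a+Mnx, against 965.9, 1452.7 and 800.1 in Bra. The lowest Bra+Foxa.a+Mnx library was just above the highest Bra library, replicate 2, and the difference of 0.57 ± 0.11 passed (limma, adjusted p = 0.00265). The same-numbered pairs differed by 0.69, 0.16 and 0.87. Without pairing by replicate number the adjusted p was 0.289 in limma, and without the libraries numbered 1 it was 0.0545. The part that this higher Bra level had in the differences of other genes was not tested.

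The groups given 1 partner set these levels in context. Foxa.a averaged 12055.0 ± 401.5 normalised reads in Bra+Foxa.a and 8586.4 ± 1219.5 in Bra+Mnx (SD, n = 3 each), and against Bra the 2 groups differed by 0.74 (limma, adjusted p = 0.000179) and by 0.25 (adjusted p = 0.3). For Mnx, Bra+Mnx libraries held 1471.8, 1457.2 and 2958.2 normalised reads, and Bra+Foxa.a libraries held 224.6, 344.1 and 278.9. The Bra+Mnx libraries thus spread widely, with replicate 3 above every Bra+Foxa.a+Mnx library. Bra+Foxa.a+Mnx embryos differed from Bra+Mnx embryos by 0.38 ± 0.19 in Mnx (limma, adjusted p = 0.498) and from Bra+Foxa.a embryos by 0.20 ± 0.10 in Foxa.a (adjusted p = 0.525). Neither difference passed, so a difference in the level of either partner between embryos given both and embryos given 1 was not detected.

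**Figure D1:**
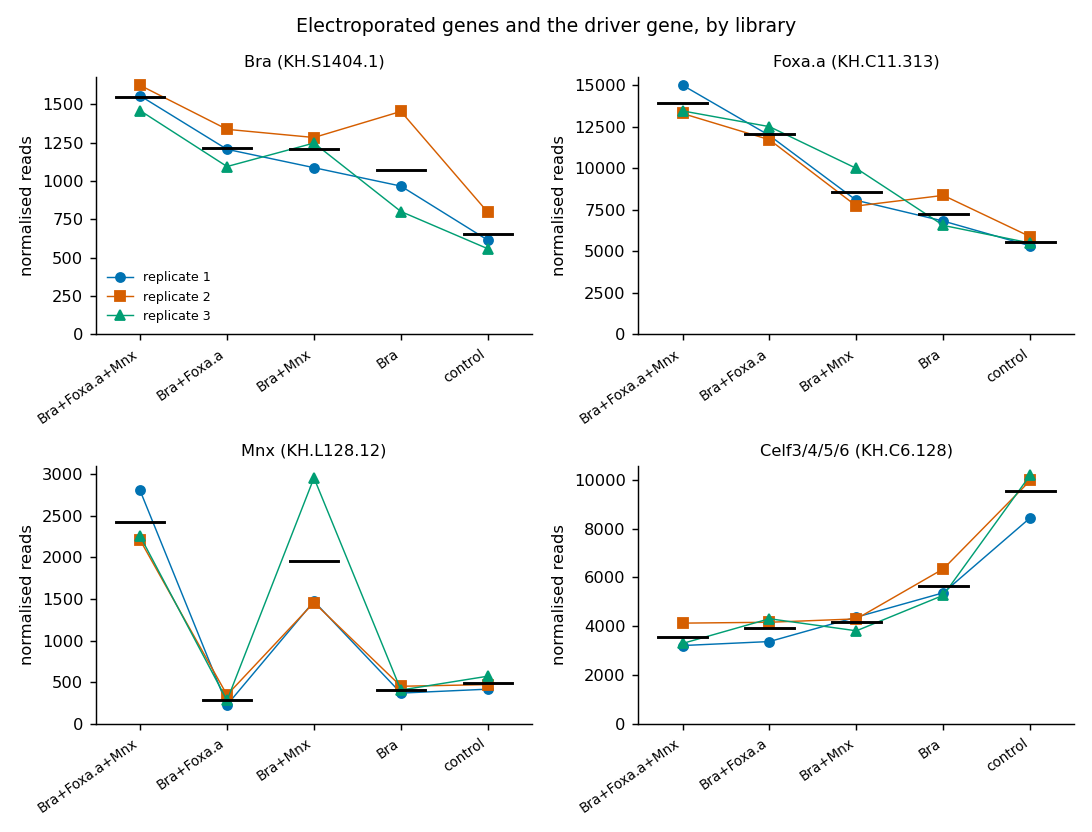
Normalised reads of the 3 electroporated genes and of the driver gene Celf3/4/5/6 in each of the 15 libraries, by group from Bra+Foxa.a+Mnx to control. Lines join libraries with the same replicate number and black bars are group means. Mnx stands between 2209.8 and 2805.9 in Bra+Foxa.a+Mnx and between 367.0 and 449.2 in Bra.

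Across the embryo, 364 genes were higher and 564 were lower in Bra+Foxa.a+Mnx than in Bra, 2.55% and 3.95% of the 14261 genes tested and together 6.51%. At an unadjusted p under 0.05 there were 2449 genes (17.2%). Without pairing by replicate number, limma called 55 higher and 65 lower genes, all of them among those called with pairing. A difference of at least 2-fold was reached by 108 of the genes that rose and 136 of those that fell, and at least 4-fold by 27 in each direction. The median difference was 0.63 among genes that rose and -0.61 among genes that fell, so most called changes were modest.

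The called genes were a small share of the RNA. In CPM (reads scaled to a common library total), the genes that rose summed to 35922 ± 1836 in Bra+Foxa.a+Mnx and 25007 ± 705 in Bra, and the genes that fell summed to 33600 ± 1594 in Bra+Foxa.a+Mnx and 44140 ± 870 in Bra (SD, n = 3 each). Since the genes were chosen by this difference, the sums describe its size and test nothing. In 363 of the 364 genes that rose, and in 562 of the 564 that fell, all 3 same-numbered pairs differed in the called direction, while 34.1% of all genes tested had 3 pairs of 1 sign. Irrespective of pairing, the 3 libraries of one group lay above the 3 of the other for 230 of the genes that rose (63.2%) and 354 of those that fell (62.8%), against 8.83% of all genes tested (3.83% with Bra+Foxa.a+Mnx higher and 5% with it lower). The groups overlapped in the remaining called genes. Because the calls were made on these same libraries, the shares by pair and by overlap are descriptions too and test nothing.

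Calls were scarcer where reads were few. Of 1682 genes with a mean under 10 normalised reads, 7 were higher and 13 lower, or 1.19%, and the median standard error there was 0.55. Among 3828 genes with a mean of at least 1000 reads the median standard error was 0.07, and 123 were higher and 176 lower, or 7.81%. The median size of a called difference was 1.96 in the lowest class and 0.38 in the highest. Of the 364 genes that rose, 30 averaged under 10 normalised reads in Bra (8.24%, against 11.7% of all genes tested). Of the 564 genes that fell, 37 averaged under 10 in Bra+Foxa.a+Mnx (6.56%, against 12.2% of all genes).

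**Figure D2:**
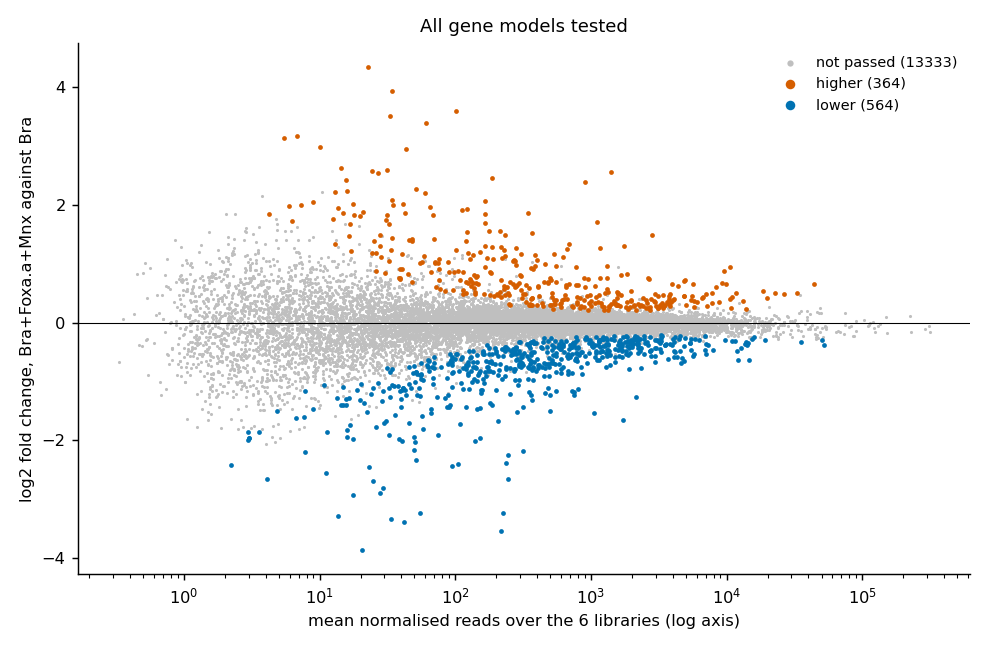
Difference between Bra+Foxa.a+Mnx and Bra (log2) against mean normalised reads (log axis) for 14261 genes, with called genes coloured by direction. The 364 higher and 564 lower genes lie at all levels, and small differences are called where reads are many.

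Neural genes were lower in embryos given both partners. Of the 7 listed neural genes, 6 fell, none rose and 1 did not pass, with a median difference of -0.62 against 0.004 over all genes tested; 6.51% of all genes were called in either direction and 3.95% as lower. For 5 of the 7 the 3 Bra+Foxa.a+Mnx libraries lay below the 3 Bra libraries, as they did for 5% of all genes tested. The list was drawn up with earlier results of these data known, so its count is a description.

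The driver gene Celf3/4/5/6 (KH.C6.128), which encodes an RNA-binding protein of neural cells, had 3204.8, 4125.6 and 3290.4 normalised reads in Bra+Foxa.a+Mnx, against 5372.5, 6354.5 and 5269.9 in Bra. The groups were apart and the 3 pairs were close to each other, at -0.75, -0.62 and -0.68, which gave -0.68 ± 0.09 (limma, adjusted p = 7.06e-05). It was below Bra with 1 partner as well, by -0.52 with Foxa.a (adjusted p = 0.00142) and -0.44 with Mnx (adjusted p = 0.0167). In control embryos it averaged 9549.4 ± 955.9 (SD, n = 3). The electroporated genes are driven by the enhancer of this gene, and they were higher in the same libraries in which it was lower. Of the 2 groups, however, only Bra+Foxa.a+Mnx carried plasmids of Foxa.a and Mnx. Bra had a plasmid in both, and its call was lost without pairing (limma, adjusted p = 0.289). Neurog (KH.C6.129), the bHLH factor that starts neuronal differentiation, had 215.9, 227.2 and 223.1 normalised reads in Bra+Foxa.a+Mnx, against 350.2, 386.2 and 297.0 in Bra. The Bra+Foxa.a+Mnx libraries were almost level with each other and all lower, at -0.62 ± 0.11 (limma, adjusted p = 0.00158, and 0.0507 without the libraries numbered 2).

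Ebf and Pou4, both used in differentiating neurons, were also lower. Ebf (KH.L24.10), a factor of neuronal differentiation, had 219.2, 341.4 and 244.7 normalised reads in Bra+Foxa.a+Mnx, against 444.3, 498.2 and 442.9 in Bra. All 3 were lower, with a difference of -0.80 ± 0.12 (limma, adjusted p = 0.000242). Pou4 (KH.C2.42), a POU-homeodomain factor of sensory neurons, had 104.3, 125.1 and 120.7 in Bra+Foxa.a+Mnx, against 196.5, 271.9 and 171.2 in Bra. The groups did not overlap, and it fell by 0.84 ± 0.13 on the log2 scale (limma, adjusted p = 0.000484, and 0.123 without pairing).

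Islet (KH.L152.2), a LIM-homeodomain factor found in motor neurons and other cells, was the listed neural gene that did not pass. Its libraries held 146.9, 297.6 and 320.1 normalised reads in Bra+Foxa.a+Mnx, against 227.3, 368.7 and 208.2 in Bra. The groups overlapped, with replicates 1 and 2 lower and replicate 3 higher than their pairs, and the difference of -0.11 ± 0.16 had a 95% interval of -0.45 to 0.24 (limma, adjusted p = 0.821). Without the libraries numbered 3 the difference was -0.47 (adjusted p = 0.0648), and without those numbered 1 it was 0.16 (adjusted p = 0.742).

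Genes of the anterior nervous system, its border and pigment cells were lower too. Otx (KH.C4.84), the homeodomain factor of the forebrain region, had 1417.7, 1591.4 and 1386.0 normalised reads in Bra+Foxa.a+Mnx, against 1893.6, 2448.0 and 2042.0 in Bra. The groups did not overlap, and the difference was -0.53 ± 0.08 (limma, adjusted p = 0.000447, and 0.0696 without pairing). Tyr (KH.C12.469), the tyrosinase of melanin synthesis in pigment cells, had 274.2, 405.8 and 349.2 in Bra+Foxa.a+Mnx, against 781.5, 563.6 and 584.5 in Bra. It was lower in every library, by -0.91 ± 0.16 (limma, adjusted p = 0.0012), and the first pair was the most apart at -1.51. Msx (KH.C2.957), a homeodomain factor of the neural plate border, had 795.5, 1438.4 and 1156.5 in Bra+Foxa.a+Mnx, against 1102.8, 1876.2 and 1717.5 in Bra. Here the groups overlapped, because libraries numbered 1 were low and those numbered 2 high in both groups, and the call of -0.47 ± 0.09 rested on the pairing (limma, adjusted p = 0.00172 with it and 1 without).

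**Figure D3:**
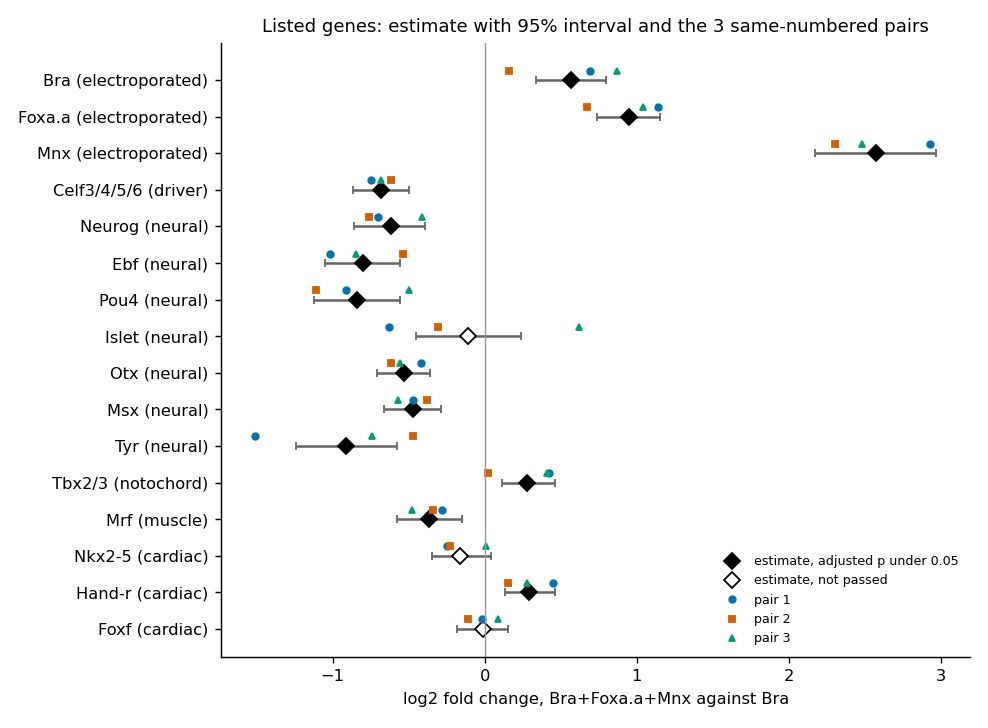
Difference between Bra+Foxa.a+Mnx and Bra (log2) for the 16 listed genes, with diamonds for the limma estimate, lines for its 95% interval and small marks for the 3 same-numbered pairs. The driver and 6 of 7 neural genes lie left of 0, and the interval of Islet, from -0.45 to 0.24, spans it.

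The neural genes were also read in embryos given 1 partner. Bra+Foxa.a and Bra+Mnx were compared with the same 3 Bra libraries as Bra+Foxa.a+Mnx, so these values share an error and are set side by side only. Against Bra, 5 of the 7 neural genes were lower in Bra+Foxa.a, with a median of -0.53, and 2 of 7 in Bra+Mnx, with a median of -0.41. Over all genes 2.43% were called lower in Bra+Foxa.a than in Bra, and 0.834% in Bra+Mnx. Directly between Bra+Foxa.a+Mnx and Bra+Foxa.a, only Msx of the 7 passed, at -0.37 ± 0.09 (limma, adjusted p = 0.0264; 1.79% of all genes were called lower), and between Bra+Foxa.a+Mnx and Bra+Mnx none of the 7 passed, where 0.764% of all genes were called lower. Msx stood at -0.10 in Bra+Foxa.a (adjusted p = 0.713) and -0.41 in Bra+Mnx (adjusted p = 0.0239). Between Bra+Foxa.a and Bra+Mnx none of the 7 passed in limma, with Msx nearest at 0.31 ± 0.09 (adjusted p = 0.0513).

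Of the listed genes of other tissues, Tbx2/3, Mrf and Hand-r passed, each near the threshold. Tbx2/3 (KH.L96.87), which encodes a T-box factor of the Ciona notochord and is used in other tissues too, had 3650.6, 3914.2 and 3744.2 normalised reads in Bra+Foxa.a+Mnx, against 2732.8, 3871.5 and 2808.3 in Bra. Replicate 2 of Bra was as high as the Bra+Foxa.a+Mnx libraries, and its pair differed by 0.02 where the others differed by 0.42 and 0.41. The difference of 0.28 ± 0.08 was close to the threshold (limma, adjusted p = 0.0466) and missed it in 13 of 20 alternative settings of the analysis, among them without pairing (0.696). Mrf (KH.C14.307), the myogenic bHLH factor, had 1904.5, 1947.4 and 1497.0 in Bra+Foxa.a+Mnx, against 2306.2, 2462.0 and 2092.7 in Bra. All 3 Bra+Foxa.a+Mnx libraries were lower, but the call of -0.37 ± 0.10 (limma, adjusted p = 0.0362) was lost in 9 of 20 alternatives, among them without pairing (0.524). These 2 genes are the only notochord and muscle genes listed beside Bra, so they do not describe those tissues as a whole.

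Of 3 cardiac genes, 1 was higher and 2 did not pass, where 2.55% of all genes were higher and 6.51% were called in either direction. Hand-r (KH.C1.1116), a bHLH factor of the heart lineage, had 725.7, 476.2 and 482.8 normalised reads in Bra+Foxa.a+Mnx, against 531.8, 430.6 and 396.3 in Bra. Both groups were high in replicate 1 and overlapped, and the difference of 0.29 ± 0.08 (limma, adjusted p = 0.0277) was lost in 10 of 20 alternatives, with an adjusted p of 1 without pairing. Nkx2-5 (KH.C8.482), a homeodomain factor of the heart, differed by -0.16 ± 0.09 with a 95% interval of -0.35 to 0.04 (limma, adjusted p = 0.428). Foxf (KH.C3.170), a forkhead factor of the heart precursors, averaged 3057.5 ± 276.0 in Bra+Foxa.a+Mnx and 3098.2 ± 435.0 in Bra (SD, n = 3 each), and its difference of -0.01 ± 0.08 had an interval of -0.18 to 0.15 (adjusted p = 0.959). Between the groups given 1 partner, 2 of the 3 cardiac genes were higher in Bra+Foxa.a than in Bra+Mnx, Nkx2-5 by 0.48 (limma, adjusted p = 0.00417) and Hand-r by 0.32 (adjusted p = 0.02), where 3.02% of all genes were called higher.

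The gene models with the widest differences among those that passed in every pair and did not overlap are given by identifier only, since no name for them is in the files. KH.C1.707 had 48.43, 42.52 and 39.88 normalised reads in Bra+Foxa.a+Mnx, against 0, 2.334 and 2.114 in Bra. It was nearly absent from Bra and from every control library, which had no read, and stood at 7.457 ± 5.8 in Bra+Foxa.a and 6.3 ± 5.111 in Bra+Mnx (SD, n = 3 each). The fitted difference from Bra was 4.35 ± 0.54 (limma, adjusted p = 5.22e-05), a size that depends on the pseudocount because so few reads were found in Bra. Embryos given both partners were also above those given Foxa.a alone with Bra, by 2.71 (adjusted p = 0.00955), and those given Mnx alone with Bra, by 2.98 (adjusted p = 0.00559). KH.C9.365 had 35.3, 52.24 and 103.5 normalised reads in Bra+Foxa.a+Mnx, against 0, 3.5 and 11.63 in Bra. Both groups were lowest in replicate 1 and highest in replicate 3, the groups did not overlap, and the difference was 3.93 ± 0.38 (limma, adjusted p = 4.46e-06, and 0.101 without pairing).

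In the other direction, KH.C7.395 had 34.48, 37.66 and 25.87 normalised reads in Bra+Foxa.a+Mnx, against 249.6, 456.2 and 502.0 in Bra. This was a difference of -3.54 ± 0.26 (limma, adjusted p = 3.36e-07) with the groups wide apart. The gene model was low in control embryos, at 17.58 ± 2.493, and intermediate with 1 partner, at 114.3 ± 36.02 in Bra+Foxa.a and 79.68 ± 19.21 in Bra+Mnx (SD, n = 3 each). In Bra+Foxa.a+Mnx embryos it was thus within 0.85 ± 0.26 of control on the log2 scale, still above it (limma, adjusted p = 0.031). KH.C9.860 had 1.642, 0 and 4.311 normalised reads in Bra+Foxa.a+Mnx, against 39.12, 16.34 and 61.3 in Bra. The groups did not overlap and the fitted difference was -3.86 ± 0.46 (limma, adjusted p = 3.4e-05), with few reads behind the Bra+Foxa.a+Mnx values. It averaged 30.26 ± 22.5 in Bra+Foxa.a and 12.83 ± 3.096 in Bra+Mnx, and was lower with both partners than with either (limma, adjusted p = 0.000327 and 0.00626).

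**Figure D4:**
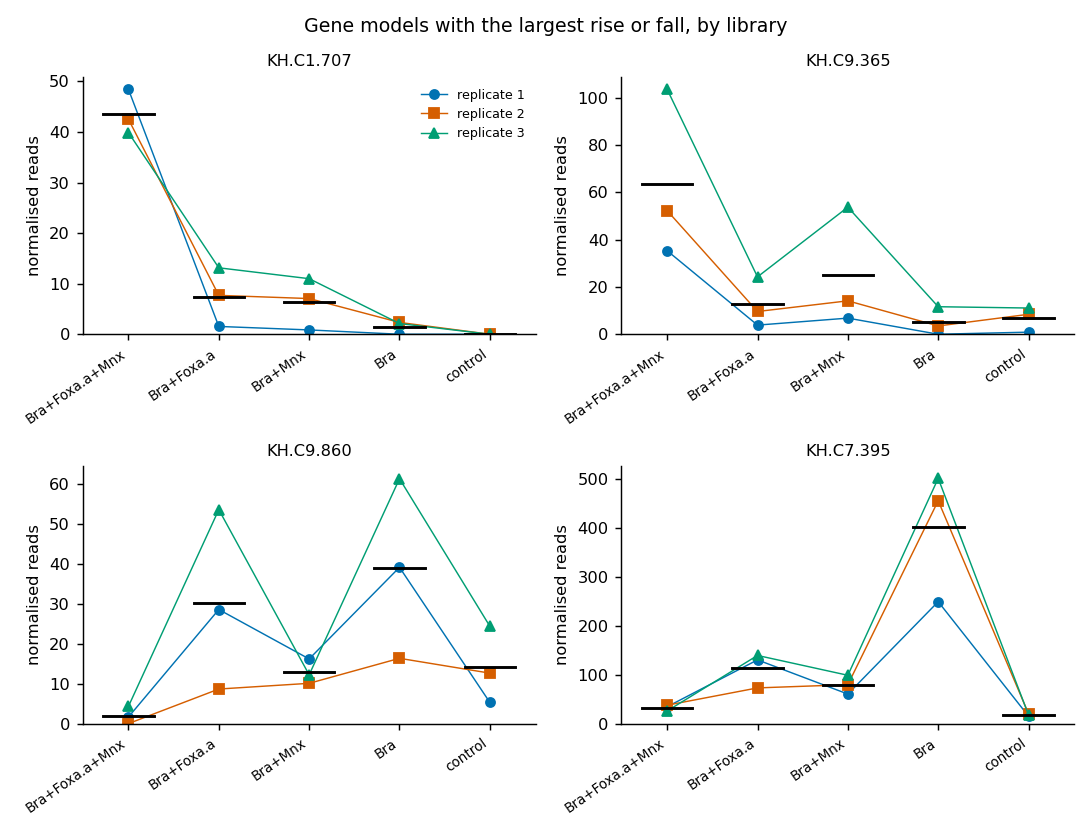
Normalised reads of the 4 gene models named by the size of their difference, in all 15 libraries by group. KH.C7.395 is high in the 3 Bra libraries, between 249.6 and 502.0, and lies between 25.87 and 37.66 in Bra+Foxa.a+Mnx.

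With which of the partners the called differences went was read from Bra+Foxa.a against Bra+Mnx, which shares no library with Bra+Foxa.a+Mnx against Bra. Both come from 1 fit with a shared estimate of each gene's spread, so their calls are not independent and the shares are descriptions. Over all genes 430 were higher in Bra+Foxa.a than in Bra+Mnx (3.02%) and 181 were lower (1.27%), together 4.28%. Of the 364 genes higher with both partners, 96 were higher in Bra+Foxa.a than in Bra+Mnx (26.4%), 8 were lower (2.2%) and 260 did not pass, with a median difference of 0.18 against -0.01 over all genes. The 96 made up 22.3% of all genes higher in Bra+Foxa.a than in Bra+Mnx, and the 8 made up 4.42% of those lower. The electroporated genes are counted here, Foxa.a among the 96 and Mnx among the 8, and their reads can be those of the plasmids. The count of 96 was 38 without the libraries numbered 1 (beside 9 lower) and 53 without those numbered 2 (beside 6). The count of 8 was 14 in edgeR, 13 in DESeq2, and 5 without Bra replicate 1 or without the libraries numbered 3. Without pairing, 11 genes were higher and 1 was lower.

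For the genes that fell, the 2 directions were nearer to each other in number. Of the 564, 79 were higher in Bra+Foxa.a than in Bra+Mnx (14%), 50 were lower (8.87%) and 435 did not pass, with a median of -0.08. Without the libraries numbered 1, 2 and 3 in turn, the 79 became 53, 38 and 50, and the 50 became 28, 22 and 37. These 2 classes were 18.4% of all genes higher in Bra+Foxa.a than in Bra+Mnx and 27.6% of those lower. The 79 genes had median differences from Bra of -0.83 with both partners, 0.19 with Foxa.a and -0.75 with Mnx. For the 50 genes the medians were -0.52, -0.59 and -0.09 in the same order. Among the genes that rose, the 96 had medians of 0.86, 0.94 and 0.04, and the 8 had medians of 0.05 with Foxa.a and 1.10 with Mnx. In each class the median with both partners was thus near that of the partner with the larger median. The choice of genes by 2 of the contrasts favours this, so these medians have no test. Without pairing, 17 genes in all met both criteria, against 233 with it.

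**Figure D5:**
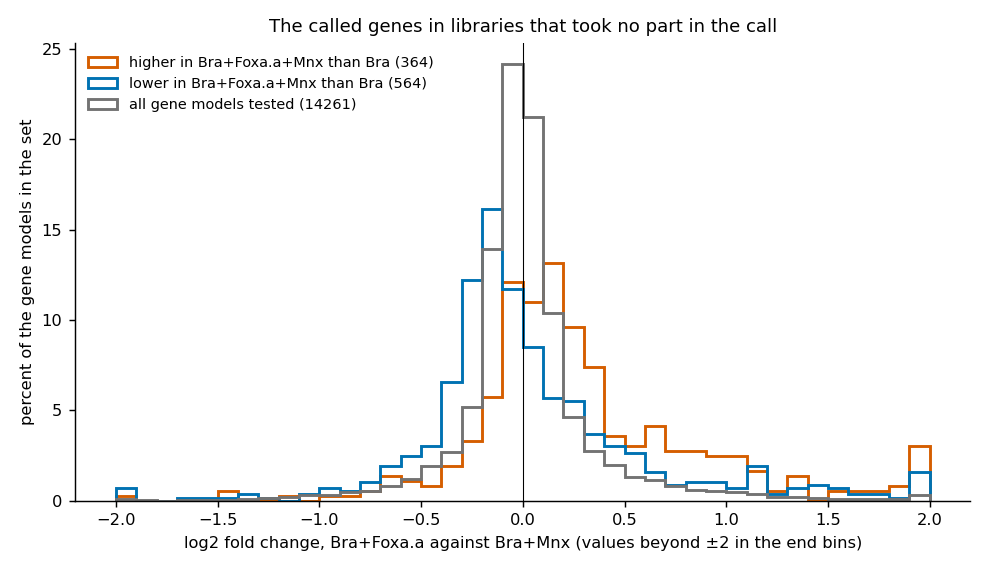
Difference between Bra+Foxa.a and Bra+Mnx (log2) for the 364 genes higher and the 564 genes lower in Bra+Foxa.a+Mnx than in Bra and for all 14261 genes, as percent of each set per bin, with values beyond ±2 in the end bins. The genes that rose are shifted to the right, with a median of 0.18, and the genes that fell spread to both sides of their median of -0.08.

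Bra+Foxa.a and Bra+Mnx were also compared with control, again without a library of the main comparison, though both used the same 3 control libraries. The fit and its estimate of each gene's spread were again shared with the main comparison, so these shares are descriptions as well. Of the 364 genes higher in Bra+Foxa.a+Mnx than in Bra, 268 were higher in Bra+Foxa.a than in control (73.6%; 10.8% of all genes were) and 1 was lower. In Bra+Mnx, 179 of them were above control (49.2%; 7.51% of all genes) and 4 were below. Most of the genes that rose with both partners were therefore above control in embryos given Bra and Foxa.a. Both groups carried the Bra plasmid and control did not, so these shares do not separate Bra from its partner. Of the 564 genes that fell, 267 were lower in Bra+Foxa.a than in control (47.3%; 8.33% of all genes) and 138 were higher (24.5%). In Bra+Mnx, 227 were below control (40.2%; 5.55% of all genes) and 101 above (17.9%). Replicate 1 of Bra was also left out, with every comparison fitted again. Of 238 genes then higher, 180 were above control in Bra+Foxa.a and 122 in Bra+Mnx. Of 383 genes then lower, 148 were below and 134 above control in Bra+Foxa.a, and 136 below and 96 above in Bra+Mnx. Without the libraries numbered 1 of all groups, 360 genes were lower. Of these, 106 were below and 131 above control in Bra+Foxa.a, and 103 below and 115 above in Bra+Mnx. The lean of the genes that fell towards levels below control thus depended on replicate 1.

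Against the same Bra libraries, 326 genes were higher (2.29%) and 347 lower (2.43%) in Bra+Foxa.a, 4.72% in all, and 70 were higher (0.491%) and 119 lower (0.834%) in Bra+Mnx, 1.33% in all. Directly, Bra+Foxa.a+Mnx differed from Bra+Foxa.a in 55 higher (0.386%) and 255 lower genes (1.79%), 2.17% in all. From Bra+Mnx it differed in 151 higher (1.06%) and 109 lower genes (0.764%), 1.82% in all. Adding Mnx to Bra and Foxa.a thus gave more lower than higher calls.

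Whether the joint difference departed from the sum of the single ones was tested for every gene as Bra+Foxa.a+Mnx minus Bra+Foxa.a minus Bra+Mnx plus Bra. Of 14261 genes 1 passed (0.00701%), in limma, and 886 had an unadjusted p under 0.05 (6.21%). With pairing, edgeR passed 4 genes and DESeq2 passed 29, and without pairing neither limma nor edgeR passed any, each with 162 genes at an unadjusted p under 0.05. The gene is KH.C7.632, named here because it was the one to pass. It had 121.5, 111.8 and 116.4 normalised reads in Bra+Foxa.a+Mnx, 337.3, 277.8 and 313.3 in Bra+Foxa.a, 97.95, 118.0 and 135.5 in Bra+Mnx, and 78.24, 89.85 and 118.4 in Bra. Only the Bra+Foxa.a libraries stood apart from these groups, and the departure from the sum was -1.70 ± 0.20 (limma, adjusted p = 0.00171, 0.157 without pairing and 0.133 without the libraries numbered 2). None of the 16 listed genes passed this test in limma. The 7 neural genes had departures of 0.04 to 0.49, all above 0, with a median of 0.39 against 0.008 over all genes. The estimated joint differences were thus less negative than the sums of the single ones in all 7, while none of the 7 departures passed. Of all 16 listed genes, 2 had a departure below 0 and the median was 0.20, so the sign was not particular to neural genes. The Bra libraries are added in this test and subtracted in each difference from Bra, so an error in them moves the 2 in opposite directions.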

How the data were processed

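RNA was measured in 15 libraries of whole embryos, made with a stranded mRNA kit per the labels' protocols. The authors deposited 4 tables of 15284 gene models, one for each group given Bra with the controls repeated in each. The deposited values are a signal: reads per gene scaled to library size, within each table, per the file headers. Tools named in the submitters' processing notes are DESeq 1.8.1 and TopHat2 2.9.8b. How reads were counted, on which build and with what use of strand was not given in the sources used here, so overlapping or antisense gene models may share reads. A further 24 columns of log values were not used.

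Each of the 24 columns used held whole multiples of one step, and dividing by it gave whole reads for 100% of values within a tolerance of 0.01. Reads of 305 gene models were 0 in all libraries. The libraries were then normalised together by median-of-ratios size factors. Because the unit was a normalised signal, the test was limma 3.58.1 (limma-trend, R 4.3.3) on log2(normalised reads + 1), for 14261 genes with a mean of at least 1 normalised read, in 1 fit of all 5 groups with the replicate number as a block and 10 comparisons, each with Benjamini-Hochberg adjustment. The steps were tested on simulated data. Replicate numbers were taken from the titles. Deviations from group means correlated at 0.58 to 0.61 between same-numbered Bra+Foxa.a+Mnx and Bra libraries (3 pairs) and at -0.34 to -0.23 between others (6 pairs). Replicates of a group differed by more than sampling noise, with a chi-square of at least 14.4 per degree of freedom.

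The comparison, its 16 listed genes and the tests were chosen with earlier results of these data known, and the counts against control, the test of departure from the sum of the single effects and its alternatives were added after seeing the data. Beyond the list, the 2 gene models that rose and the 2 that fell most are named, among called genes with at least 1 CPM in the higher group, no overlap between groups and 3 of 3 pairs of 1 sign. No KH identifier matched the reference table. Alternatives were no pairing, only the 6 libraries compared, other scalings, pseudocounts and filters, edgeR 4.0.16 and DESeq2 1.42.0 on the recovered reads, and leaving out libraries.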

Additional observations from a re-analysis of the deposited data

Results flagged for a closer look

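KH.C7.632 drew attention because the effect of Foxa.a on it differed with and without Mnx, by a test of that difference itself. The difference was -1.70 ± 0.20 on the log2 scale (limma, adjusted p = 0.00171), and it was the 1 gene of 14261 to pass in limma. It passed in 22 of 25 alternatives, with departures of -1.82 to -1.56, and missed the threshold without pairing in limma (adjusted p = 0.157) and edgeR (0.129) and without the libraries numbered 2 (0.133). Its mean was 116.6 ± 4.867 normalised reads in Bra+Foxa.a+Mnx, 309.4 ± 29.95 in Bra+Foxa.a, 117.1 ± 18.8 in Bra+Mnx, 95.49 ± 20.65 in Bra and 88.07 ± 7.623 in control (SD, n = 3 each). Bra+Foxa.a was above Bra by 1.70 (adjusted p = 2.72e-06) and Bra+Foxa.a+Mnx differed from Bra by 0.31 (adjusted p = 0.268).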

How the results depend on the processing

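Pairing by replicate number was the choice that mattered most. Without the replicate block limma called 55 higher and 65 lower genes, 17 of which also differed between Bra+Foxa.a and Bra+Mnx, and edgeR without it called 50, 64 and 18. With the block, the other settings (scalings, pseudocounts, filters, only the 6 libraries, edgeR and DESeq2) called 354 to 421 higher and 505 to 598 lower genes. Leaving out 1 library gave 238 to 354 higher and 383 to 531 lower genes, with 176 to 218 that also differed between the single partners; the fewest higher genes came without Bra replicate 1. Leaving out all libraries of 1 replicate number gave 202 to 284, 283 to 508 and 119 to 163 (without number 1, 202, 360 and 128). No gene was called in the opposite direction in any of the 20 alternatives. For the 20 genes named in the comparison with Bra, 349 of 400 values kept direction and side of the threshold, 44 lost the call and 7 changed sign. The sign changes were of genes that had not passed: Islet ranged from -0.37 to 0.12 without 1 library, being above 0 without Bra+Foxa.a+Mnx replicate 1, and stood at 0.16 without the libraries numbered 1 and -0.47 without those numbered 3, and Foxf stood at 0.02 with total reads as the scale and ranged from -0.12 to 0.07 without 1 library, with 0.03 without Bra+Foxa.a+Mnx replicate 3, 0.02 and 0.07 without Bra replicates 1 and 2, and 0.04 without the libraries numbered 2. The test of departure from the sum passed 1 gene; it passed 0 without pairing in limma and edgeR, 2 with TMM, 9 with total reads, 3 with a pseudocount of 5, 4 in edgeR, 29 in DESeq2, 1 to 8 without 1 library and 0 to 2 without 1 replicate number. The causes were not tested. The comparison of the single partners has no value when only the 6 libraries are used. Depth limits genes under 10 reads, where the median standard error was 0.55.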
